A study of Mus musculus with 4 samples.

Results

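The 9 genes Nfkbia, Nfkbiz, Tnfaip3, Relb, Nfkb2, Birc3, Tnfrsf12a, Ptgs2 and Lcn2 belong to the feedback circuit of the transcription factor NF-kappaB and to its inflammatory output. They were taken by symbol from a table of 24940 genes, and all 9 were found there. Ribosomal-depleted total RNA was sequenced from pancreatic islets, which hold the insulin-producing beta cells and other endocrine cells, of male mice aged 3 to 4 months on a low-fat chow diet. The control group holds 2 libraries from non-transgenic mice (replicates 1 and 2), and the knockdown group holds 2 libraries from Tafazzin-knockdown mice (replicates 3 and 4). Tafazzin is the mitochondrial transacylase that remodels cardiolipin. Each library came from about 300 islets pooled from 2 to 3 mice. What drives the knockdown construct, and in which cells, is not given in the sources used here. Since the controls carry no transgene, an effect of the transgene and one of Tafazzin loss cannot be told apart.

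NF-kappaB dimers are held in the cytoplasm by inhibitors of the IkappaB family. Cytokines, bacterial products and cell injury activate kinases that mark these inhibitors for destruction, and the freed dimers then switch on target genes. Several of these targets shut the pathway off again, so that their transcripts are widely read as a sign of its activity. In islets, the pathway is best known as the one by which interleukin-1 and tumour necrosis factor act on beta cells.

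Promoter sequence is shown first, since these genes are usually described as direct targets. Of the 9 genes, 7 had a promoter window at the transcript start of the deposited table, in RefSeq sequence of GRCm38.p6, and each window ran over 300 bases with 250 of them upstream of the start. The kappaB consensus, the DNA element that NF-kappaB binds, was searched on both strands. It was found in 3 of the 7 windows, those of Nfkbia, Tnfaip3 and Nfkb2, and in 4.51% of all 32851 windows. Tnfaip3 and Nfkb2 also have windows at other starts, which are not shown. The 250 upstream bases of these 3 genes are printed with matches in capitals, beside those of Ptgs2 and Lcn2, the genes with the largest changes, which held no match.
Nfkbia, chr12:55492648-55492897, minus strand: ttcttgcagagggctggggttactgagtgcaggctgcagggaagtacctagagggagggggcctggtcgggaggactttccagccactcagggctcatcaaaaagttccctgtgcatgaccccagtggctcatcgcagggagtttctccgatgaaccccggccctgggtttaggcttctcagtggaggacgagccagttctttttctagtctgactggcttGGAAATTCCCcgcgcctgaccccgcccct
Tnfaip3, chr10:19015411-19015660, minus strand: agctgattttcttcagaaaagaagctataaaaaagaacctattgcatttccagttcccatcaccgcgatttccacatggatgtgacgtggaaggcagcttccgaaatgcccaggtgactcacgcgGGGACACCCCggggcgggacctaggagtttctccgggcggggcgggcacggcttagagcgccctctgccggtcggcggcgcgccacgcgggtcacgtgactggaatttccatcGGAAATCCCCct
Nfkb2, chr19:46304487-46304736, plus strand: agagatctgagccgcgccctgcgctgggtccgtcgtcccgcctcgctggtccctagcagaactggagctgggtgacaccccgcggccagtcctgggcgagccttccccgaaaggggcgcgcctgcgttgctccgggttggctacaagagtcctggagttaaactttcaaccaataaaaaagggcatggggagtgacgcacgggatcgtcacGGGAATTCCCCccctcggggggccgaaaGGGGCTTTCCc
Ptgs2, chr1:150099781-150100030, plus strand: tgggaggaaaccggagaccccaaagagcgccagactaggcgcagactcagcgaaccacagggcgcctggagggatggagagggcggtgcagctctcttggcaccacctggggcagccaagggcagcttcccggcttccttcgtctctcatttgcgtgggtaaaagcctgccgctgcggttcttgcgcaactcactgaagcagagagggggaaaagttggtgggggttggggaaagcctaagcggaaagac
Lcn2, chr2:32387740-32387989, minus strand: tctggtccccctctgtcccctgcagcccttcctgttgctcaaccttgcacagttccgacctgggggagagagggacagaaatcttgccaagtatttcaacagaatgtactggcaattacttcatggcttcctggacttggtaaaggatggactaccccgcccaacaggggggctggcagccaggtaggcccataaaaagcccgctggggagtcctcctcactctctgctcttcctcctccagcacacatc
The match of Nfkbia begins 29 bases before the start, and those of Tnfaip3 begin 125 and 12 bases before it. In Nfkb2 a first capital stretch holds 3 overlapping matches, since the element is nearly the same on both strands there, and a further match begins 11 bases before the start. The matches are descriptions of letters, and a missing match concerns only this window.

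Levels are given in units, where 1 unit is 1 read in 10000000 reads of a library. They are not divided by gene length and cover the whole span of a gene, as far as the deposited lengths show. The library totals lay between 68823161 and 81073502 reads, so that 1 read is worth 0.123 to 0.145 units. The test was limma on log2(value + 1) over 13531 genes, with Benjamini-Hochberg adjustment at 0.05. Log2 fold changes compare knockdown with control and are given relative to the median of all tested genes, which was 0.17, with their standard error (SE). Limma p-values test the unshifted change. The libraries were islet RNA in both groups, with Ins2 at 46108 to 58452 units and the glucagon gene Gcg at 5422 to 6652. Taz, the gene of Tafazzin, stood at 23.1 and 15.4 units in control islets and at 13.8 and 12.7 in the knockdown. Both knockdown libraries were lower, and the test did not call the difference (limma adjusted p = 0.529).

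Of the 9 genes, 3 rose in the knockdown islets and none fell. These were Ptgs2, Lcn2 and Tnfrsf12a, whose mean levels were 3.21, 2.62 and 2.09 times those of the controls. In pooled islets, more cells of a type and more RNA per cell cannot be told apart. Among all tested genes 337 were called higher, which is 2.49%, and 6 were called lower, which is 0.0443%. Tnfaip3, Nfkbia, Nfkbiz, Birc3 and the subunits Relb and Nfkb2 did not pass the test. All 9 genes were higher in knockdown replicate 3 than in knockdown replicate 4, as were 54.5% of all tested genes, and without replicate 3 no member was called, against 0.207% of all genes called higher. That fit holds 1 knockdown library, which is assumed to vary like the 2 controls, and its standard errors were larger, 0.36 for Ptgs2 and 0.39 for Lcn2. Scaling the libraries by median ratio with replicate 3 left out also gave no member call, against 0.333% of all genes.

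**Figure D1:**
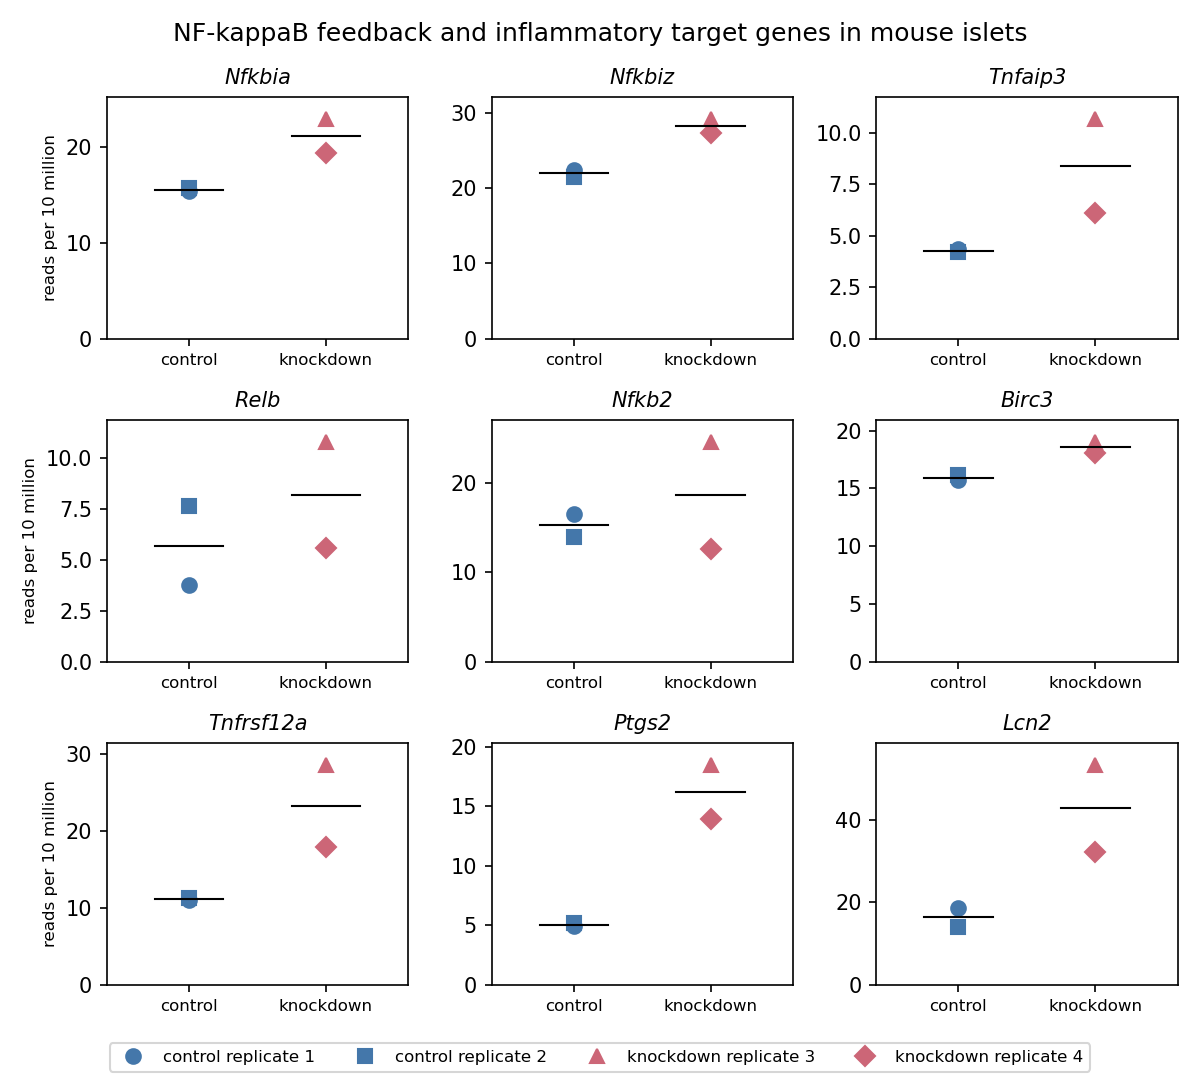
Level of each gene in every library, in units (reads in 10000000 library reads); points are libraries, the bar is the mean of the 2 libraries of a group, and each vertical axis starts at 0. Both knockdown libraries stand above both controls in 7 of the 9 panels, as in 34.9% of all tested genes. The groups overlap for Relb and Nfkb2.

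Ptgs2 encodes the inducible cyclooxygenase, which makes the precursor of prostaglandins (NM_011198; mm10 chromosome 1, 150100031 to 150108234, plus strand; 10 exons that cover 54.3% of the span in GENCODE M21). Control replicates 1 and 2 held it at 4.94 and 5.18 units and knockdown replicates 3 and 4 at 18.5 and 14.0, from 34, 42, 142 and 110 reads. The controls lay close together, and both knockdown libraries stood well above them. The mean went from 5.06 ± 0.170 to 16.3 ± 3.20 units (SD, n = 2 each), a log2 fold change of 1.33 ± 0.27 SE (limma adjusted p = 6.48e-06). With edgeR on the recovered reads the adjusted p was 0.00317, and with DESeq2 0.0145. Without knockdown replicate 3 the log2 fold change was 1.15 and the limma adjusted p was 0.0847.

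Lcn2 encodes lipocalin 2, a secreted protein of epithelia and neutrophils that binds bacterial iron carriers (NM_008491; mm10 chromosome 2, 32384637 to 32387739, minus strand; 6 exons over 29.5% of the span). Its levels were 18.6 and 14.1 units in control islets, and 53.3 and 32.2 in knockdown replicates 3 and 4, from 128, 114, 409 and 253 reads. The groups did not overlap, and replicate 3 was the highest library. The mean rose from 16.3 ± 3.21 to 42.8 ± 15.0 units (SD, n = 2 each), a log2 fold change of 1.14 ± 0.25 SE (limma adjusted p = 3.09e-05; edgeR adjusted p = 5.05e-04; DESeq2 adjusted p = 0.00195). Without knockdown replicate 3 it was 0.79 (limma adjusted p = 0.845), and with no filter on low values the call was lost (limma adjusted p = 0.0675). Neutrophils also store lipocalin 2, and of 12 neutrophil marker genes 6 had no read in any library. The other 6 did not exceed 0.522 units in any library, S100a9 among them at 0.261 at most, and all 12 together took 0 and 2 control reads, and 12 and 7 reads of the knockdown libraries. Slc22a17, a proposed lipocalin 2 receptor, was read at 17.7 and 14.8 units in control islets and at 19.3 and 14.5 in knockdown islets (limma adjusted p = 0.984). The receptor gene Lrp2 had no read.

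Tnfrsf12a encodes the receptor of the cytokine TWEAK, which signals to NF-kappaB (NM_013749; mm10 chromosome 17, 23675445 to 23677449, minus strand; 4 exons over 49.1% of the span). Of its span 79 bases overlap Hcfc1r1 on the other strand, and Hcfc1r1 lay between 21.3 and 27.0 units in all 4 libraries. Tnfrsf12a was read at 11.0 and 11.2 units in control islets and at 28.6 and 17.9 in knockdown replicates 3 and 4, from 76, 91, 219 and 141 reads. Both controls were nearly equal, and the 2 knockdown libraries were above them but far apart. The mean rose from 11.1 ± 0.128 to 23.2 ± 7.52 units (SD, n = 2 each), a log2 fold change of 0.80 ± 0.25 SE (limma adjusted p = 0.00983). The call depended on the test. The edgeR adjusted p was 0.0546, DESeq2 gave 0.327 and limma after median-ratio scaling gave 0.0793. Limma gave 0.22 with no filter on low values and 0.188 after quantile normalization. Without knockdown replicate 3 the log2 fold change was 0.48 (limma adjusted p = 1.0). Tnfsf12, the gene of the ligand TWEAK, stood at 14.2 and 13.2 units in control islets and at 15.8 and 11.1 in knockdown islets, so that its groups overlapped (limma adjusted p = 0.983).

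Tnfaip3, Nfkbia and Nfkbiz were higher in both knockdown libraries than in both controls, as were 34.9% of all tested genes on the deposited values. After median-ratio scaling this no longer held for Nfkbia. None of the 3 genes passed the test. Tnfaip3 encodes a ubiquitin-editing enzyme that ends signalling from the tumour necrosis factor receptor (NM_009397; mm10 chromosome 10, 19000910 to 19015410, minus strand; 9 exons over 30.5% of the span). It stood at 4.36 and 4.19 units in control islets and at 10.7 and 6.10 in knockdown replicates 3 and 4, from 30, 34, 82 and 48 reads. Replicate 4 lay nearer to the controls than to replicate 3. The mean was 4.28 ± 0.117 against 8.40 ± 3.25 units (SD, n = 2 each), with a log2 fold change of 0.62 ± 0.30 SE (95% interval 0.04 to 1.20; limma adjusted p = 0.162; edgeR adjusted p = 0.412).

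Nfkbia encodes IkappaB-alpha, the inhibitor that is destroyed and remade in each round of NF-kappaB activity (NM_010907; mm10 chromosome 12, 55489409 to 55492647, minus strand; 6 exons over 48.7% of the span). It was read at 15.4 and 15.7 units in control islets and at 23.0 and 19.3 in knockdown replicates 3 and 4, from 106, 127, 176 and 152 reads. The mean was 15.5 ± 0.186 against 21.1 ± 2.56 units (SD, n = 2 each), with a log2 fold change of 0.25 (95% interval -0.24 to 0.75; limma adjusted p = 0.633). Nfkbiz encodes IkappaB-zeta, a nuclear member of the family that acts on a subset of targets (NM_030612; mm10 chromosome 16, 55811377 to 55838641, minus strand; 14 exons over 15.1% of the span). Its levels were 22.4 and 21.5 units in control islets and 29.2 and 27.3 in knockdown islets, from 154, 174, 224 and 215 reads. The log2 fold change was 0.19 (95% interval -0.30 to 0.68; limma adjusted p = 0.731). For both genes the interval covers 0, and it overlaps the 95% interval of Lcn2 (0.65 to 1.63). A difference between these genes and Lcn2 was not tested.

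Relb and Nfkb2 encode the subunits of the noncanonical pathway, in which a precursor is cut to free the dimer. For both, the groups overlapped. Relb (NM_009046; mm10 chromosome 7, 19606222 to 19629438, minus strand; 12 exons over 9.52% of the span) stood at 3.78 and 7.65 units in control islets and at 10.8 and 5.60 in knockdown replicates 3 and 4, from 26, 62, 83 and 44 reads. The spread within each group was as large as the difference between them, with means of 5.71 ± 2.74 and 8.21 ± 3.70 units (SD, n = 2 each). Its log2 fold change was 0.29 (95% interval -0.27 to 0.86; limma adjusted p = 0.654), and it was -0.27 without control replicate 1 and -0.12 without knockdown replicate 3. Nfkb2 (NM_001177369; mm10 chromosome 19, 46304737 to 46312090, plus strand; 23 exons over 40.5% of the span) stood at 16.6 and 13.9 units in control islets and at 24.6 and 12.6 in knockdown replicates 3 and 4. Replicate 3 was the highest library and replicate 4 the lowest. The log2 fold change was 0.04 (95% interval -0.46 to 0.54; limma adjusted p = 0.893), and it was -0.41 without knockdown replicate 3. Of its span 12.1% overlaps 4833438C02Rik on the other strand, read at 3.70 to 6.68 units, and 3 bases overlap Psd, read at 22.2 to 26.7.

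Birc3 encodes a ubiquitin ligase that acts at the tumour necrosis factor receptor and curbs the noncanonical kinase (NM_007464; mm10 chromosome 9, 7848701 to 7873170, minus strand; 9 exons over 10.9% of the span). It was the least changed in its ratio of means, at 15.7 and 16.2 units in control islets and 19.0 and 18.1 in knockdown islets, from 108, 131, 146 and 142 reads. The groups did not overlap on the deposited values, with a ratio of means of 1.16. Relative to the median of all genes the log2 fold change was 0.04 (95% interval -0.46 to 0.54; limma adjusted p = 0.893), and it was -0.11 without control replicate 1.

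**Figure D2:**
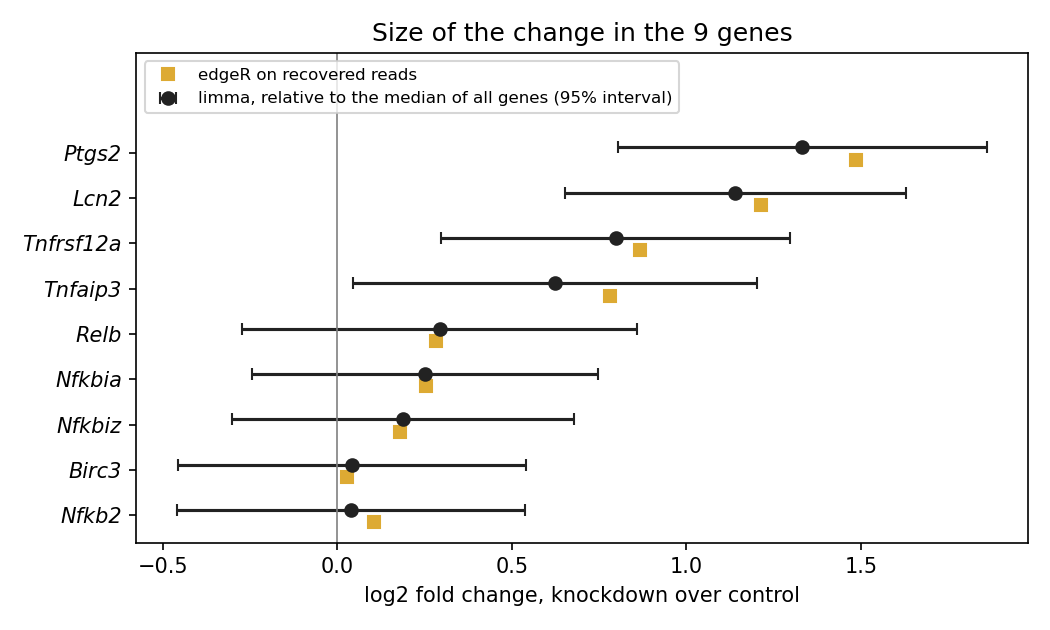
Log2 fold change of the 9 genes, knockdown over control; circles are limma estimates relative to the median of all tested genes with 95% intervals, and squares are edgeR estimates on recovered reads. The order runs from Ptgs2 at 1.33 to Nfkb2 at 0.04 on the limma scale, and the intervals of Relb, Nfkbia, Nfkbiz, Birc3 and Nfkb2 cover 0.

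Counted without a test, both knockdown libraries were above both controls in 7 of the 9 genes, against 34.9% of all tested genes. After median-ratio scaling, which removes the shift of the median, this held for 5 of 9, against 20.4% of all genes, and Nfkbia and Birc3 no longer met it. Scaling left replicate 3 above replicate 4 in 9 of 9 genes, against 51.5% of all genes. Limma after scaling and edgeR called 2 of the 9, Ptgs2 and Lcn2, where 1.12% and 1.29% of all genes were called higher. DESeq2 also called these 2 genes, with 0.613% of all genes called higher, and so did edgeR on halved reads (1.18%) and limma after quantile normalization (0.636%). Limma called 1 of the 9, Ptgs2, with no filter on low values, against 0.455% of all genes. It called all 3 genes with a pseudocount of 0.1 (2.4% of all genes) or 0.5 (2.48%), with a minimum mean of 5 units (2.27%) and without the trend (3.9%). The same 3 were called when control replicate 1 (9.36%), control replicate 2 (2.67%) or knockdown replicate 4 (2.39%) was left out. Against the control mean, Ptgs2 stood at 3.66 times in replicate 3 and 2.77 times in replicate 4. The corresponding values were 3.27 and 1.97 times for Lcn2, and 2.57 and 1.61 times for Tnfrsf12a.

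**Figure D3:**
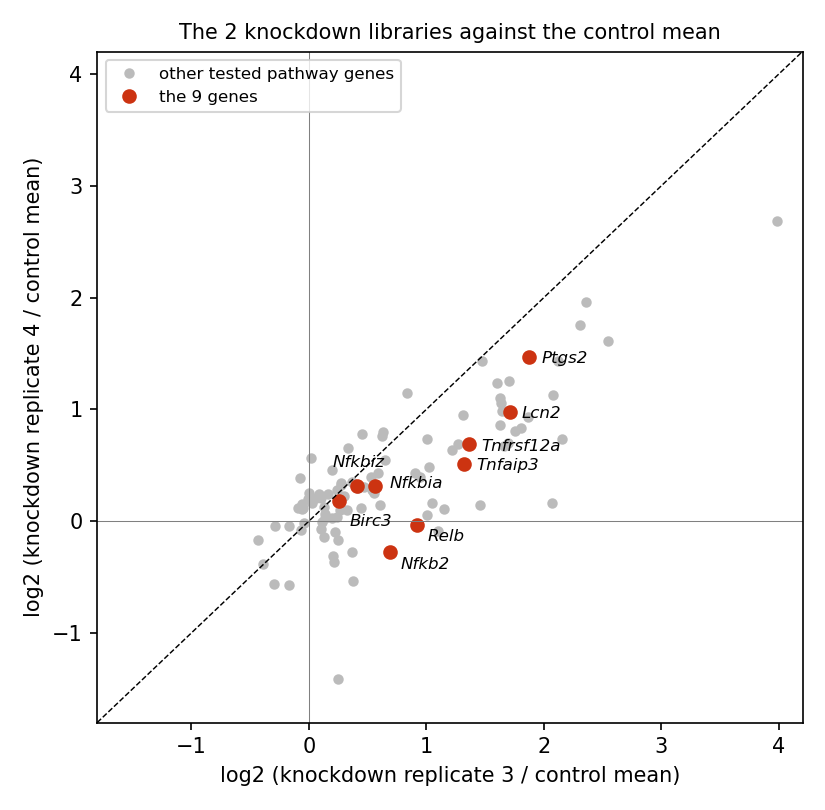
Level in knockdown replicate 3 (horizontal) and knockdown replicate 4 (vertical) over the control mean, both as log2 ratios on the deposited values; red points are the 9 genes, grey points the other tested genes of the pathway lists, and the dashed line marks equal change. All 9 genes lie below the line, and Relb and Nfkb2 lie below the control mean in replicate 4.

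The wider pathway was described with lists by role, which hold 113 genes beside the 9 members. These lists were drawn up with earlier results of the data known, so that counts of calls in them are descriptions. Of the 91 that could be tested, 15 rose and none fell by limma, where 2.49% of all tested genes were called higher. For 58 of the 91 the log2 fold change lay above the median of all genes. The median log2 fold change of the 91 genes was 0.20, where that of all tested genes is 0 by construction. DESeq2 called 3 of the 15 genes, Il6, Lif and Slco2a1. It did not call C3, Csf1, Socs3 or Sele (adjusted p from 0.0981 for C3 to 0.9998 for Sele). With edgeR, 7 of these 15 genes were called, namely C3, Csf1, Il6, Lif, Sele, Slco2a1 and Socs3, and without knockdown replicate 3 limma called Lif alone.

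In the test over all 4 libraries, the machinery between receptor and nucleus gave no call. Of 24 tested kinases, adaptors and ubiquitin ligases, Birc3 among them, none was called and 12 lay above the median of all genes. The most abundant was Irak1, a kinase of the interleukin-1 receptor complex, at 130 and 113 units in control islets and 117 and 131 in knockdown islets. None of the 5 subunits was called, and their median log2 fold change was 0.04. Nfkb1, the most abundant of them, stood at 45.9 and 39.0 units against 62.3 and 50.5 (limma adjusted p = 0.634). Without control replicate 1, where 9.36% of all genes were called higher, limma called Nfkb1 higher (adjusted p = 0.0426), and also the kinase genes Chuk, Ikbkb and Irak4 and the adaptor gene Traf3 (adjusted p = 0.0409, 0.0433, 0.015 and 0.0427). None of these 5 was called when any of the other libraries was left out. Among the 6 IkappaB genes none was called either, and Bcl3, a nuclear member, was at 27.9 and 28.7 units in control islets and at 42.5 and 38.3 in knockdown islets (limma adjusted p = 0.455).

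Among the ligand genes, Tnfsf12 was the most abundant at 11.1 to 15.8 units, and the other 11 reached 2.61 units at most. Only 4 of 12 ligand genes could be tested and none was called, and 4 had no read in any library. Tnf was read at 0.291 and 0 units in control islets and at 0 and 0.509 in knockdown islets. Il1b stood at 0.872 and 1.23 units against 2.61 and 2.04 (limma adjusted p = 0.656). Among 13 receptors, Tnfrsf12a and Cd14 were called, where 2.49% of all tested genes were called higher. Cd14, the lipopolysaccharide coreceptor, rose to 12.8 and 8.90 units from 2.62 and 5.67 (limma adjusted p = 0.00133), but was not called by edgeR (adjusted p = 0.146), without control replicate 1 (limma adjusted p = 0.0754) or without knockdown replicate 3 (limma adjusted p = 0.60). Il1r1, the interleukin-1 receptor and the most abundant of the list, stood at 1058 and 889 units against 1073 and 992.

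Among 13 deubiquitinases and other inhibitors, Il1rn and Socs3 were called, where 2.49% of all tested genes were called higher. Il1rn, the interleukin-1 receptor antagonist, rose to 10.7 and 5.60 units from 2.91 and 2.96 (limma adjusted p = 0.0121; edgeR adjusted p = 0.131). It was not called without control replicate 2 (limma adjusted p = 0.0519) or knockdown replicate 3 (limma adjusted p = 1.0). Socs3, a feedback inhibitor of cytokine signalling through STAT proteins, rose to 58.9 and 48.8 units from 28.5 and 30.1 (limma adjusted p = 0.0264; edgeR adjusted p = 0.0164). Limma did not call Socs3 without knockdown replicate 3 or 4 (adjusted p = 1.0 and 0.357). Tax1bp1, the most abundant gene of the list and a partner of the Tnfaip3 protein, stood at 114 and 101 units in control islets and at 115 and 128 in knockdown islets (limma adjusted p = 0.906).

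The inflammatory targets held most of the calls, with 12 of 24 tested genes higher and none lower. Of all tested genes 2.49% were called higher. The median log2 fold change of the list was 0.81. Ptgs2 and Lcn2 are 2 of the 12 called genes, and without them 10 of 22 were called and the median was 0.71. The list was drawn up with earlier results of these data known, so that the count describes it and does not test it. The cytokine genes Lif and Il6 rose to 21.4 and 16.3 units from 4.65 and 3.70, and to 14.6 and 7.63 units from 2.03 and 2.96 (limma adjusted p = 9.54e-10 and 2.49e-06). Lif kept its call without knockdown replicate 3 (limma adjusted p = 0.00174), where Il6 lost it (limma adjusted p = 0.209). The endothelial adhesion gene Sele went from 0 and 0.987 to 7.82 and 3.18 units, and Icam1 to 14.1 and 9.41 units from 4.36 and 4.69 (limma adjusted p = 6.21e-05 and 0.00216). For Icam1 the edgeR adjusted p was 0.0552. Both were lost without knockdown replicate 3 (limma adjusted p = 0.537 and 0.81). The complement gene C3 rose from 8.14 and 10.1 to 31.8 and 16.3 units, and Csf1, the macrophage growth factor, from 21.8 and 23.7 to 54.8 and 36.6 units. C3 was called by limma and edgeR (adjusted p = 1.75e-04 and 0.0158), and so was Csf1 (adjusted p = 0.00819 and 0.0138). DESeq2 called neither C3 nor Csf1 (adjusted p = 0.0981 and 0.126). Limma lost both without knockdown replicate 3 (adjusted p = 1.0) and Csf1 without knockdown replicate 4 (adjusted p = 0.0962).

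Vcam1, Plaur, Cxcl5 and Ccl2 were called by limma on the deposited values (adjusted p from 1.25e-04 for Vcam1 to 0.0384 for Cxcl5), but not by edgeR (adjusted p from 0.0562 for Plaur to 0.541 for Ccl2). The groups of Ccl2 overlapped, at 0.872 and 4.44 units in control islets and 8.61 and 4.32 in knockdown islets. None of these 4 was called by limma without knockdown replicate 3 (adjusted p from 0.182 for Vcam1 to 1.0 for the others). Without control replicate 1 limma lost Vcam1, Cxcl5 and Ccl2 (adjusted p = 0.128, 0.0702 and 0.503), and without control replicate 2 it lost Cxcl5 (adjusted p = 0.082). Cflar, an inhibitor of death-receptor killing and the most abundant gene of the list, overlapped between the groups, at 68.9 and 46.3 units in control islets and at 57.6 and 68.4 in knockdown islets (limma adjusted p = 0.927).

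Genes around Ptgs2 in the prostaglandin route rose with it in part. Of 11 tested genes 3 were called higher and none lower, where 2.49% of all tested genes were called higher. Beside Ptgs2, the called genes were Pla2g4a and Slco2a1. Pla2g4a encodes the phospholipase that frees arachidonic acid, the substrate of cyclooxygenases, and went to 5.22 and 3.56 units from 0.872 and 1.23 (limma adjusted p = 0.0234; edgeR adjusted p = 0.145). Slco2a1 encodes a prostaglandin transporter and went to 29.6 and 18.8 units from 9.59 and 9.37 (limma adjusted p = 1.89e-04; edgeR adjusted p = 0.00602). Without knockdown replicate 3 limma called neither (adjusted p = 0.929 and 0.778), and without control replicate 1 it did not call Pla2g4a (adjusted p = 0.0552). Ptges3, the most abundant gene of the list, a cochaperone also described as a prostaglandin E synthase, stood at 50.7 and 49.5 units against 72.2 and 65.8 (limma adjusted p = 0.533).

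**Figure D4:**
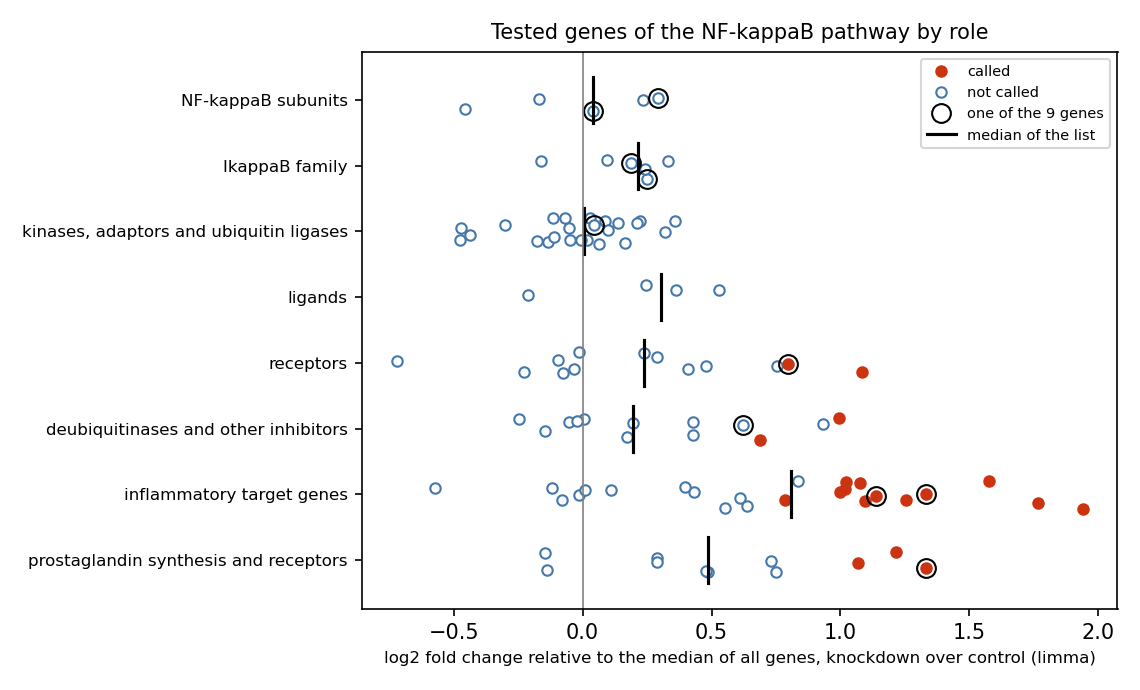
Limma log2 fold change, knockdown over control and relative to the median of all tested genes, for each tested gene of 8 lists; filled points passed the test, black rings mark the 9 genes described here, and bars are list medians. Filled points are found among receptors, inhibitors, inflammatory targets and prostaglandin genes, and none among subunits, IkappaB genes, ligands or kinases and adaptors.

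Markers of other cells moved between the groups beside these genes. For the counts of calls below, 2.49% of all tested genes were called higher. The marker lists were also chosen with earlier results of these data known, so that the counts describe them and do not test them. The 12 stellate and fibroblast markers summed to 119 and 123 units in control islets and to 348 and 275 in knockdown replicates 3 and 4, with 7 of 12 called higher. The most abundant, Sparc, went from 53.5 and 52.3 to 126 and 105 units. For 12 endothelial markers the sums were 198 and 170 units against 390 and 300, with 6 of 12 called higher, and Eng, the most abundant, went from 28.6 and 25.0 to 69.6 and 45.5 units. Duct markers summed to 870 and 910 units against 1718 and 1136, with 5 of 10 tested genes called higher. The duct gene Spp1 went from 252 and 251 to 720 and 373 units. Without knockdown replicate 3, limma called 2 of the stellate markers, the collagen genes Col1a2 and Col3a1 (adjusted p = 0.00221 and 0.045), and no endothelial or duct marker. Without knockdown replicate 4 it called 5 stellate, 4 endothelial and 4 duct markers, and Sparc, Eng and Spp1 were not among them (adjusted p = 0.186, 0.0605 and 0.081). Replicate 3 was above replicate 4 in each of these 3 sums, as in the 9 genes.

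The sums of macrophage, acinar and beta cell markers overlapped between the groups on the deposited values. The 12 macrophage markers summed to 64.4 and 53.0 units in control islets and to 69.4 and 58.4 in knockdown islets, with 1 of 8 tested genes, Lyz2, called higher, and Cd74 stood at 28.6 and 20.8 units against 27.9 and 20.3. For 12 acinar markers the sums were 2882 and 5945 units against 5024 and 2369, with Ctrb1 at 1001 and 2057 against 1767 and 828. Beta cell markers summed to 99387 and 78523 units against 83632 and 90809. Limma on the deposited values called none of these 10 genes. Their median log2 fold change was -0.28, and 0 of 10 lay above the median of all genes. After median-ratio scaling Ins2, the most abundant, was lower in both knockdown libraries, at 56310 and 54413 units against 44813 and 49187. Limma after this scaling, edgeR and DESeq2 called Mafa lower (adjusted p = 0.0198, 0.0439 and 0.0318). EdgeR on halved reads did not (adjusted p = 0.0523). The alpha cell sums were 5475 and 6217 units in control islets and 6718 and 6543 in knockdown islets. These groups did not overlap on the deposited values, and none of 5 genes was called. After median-ratio scaling Gcg, the most abundant of the 5, overlapped between the groups, at 5223 and 7269 units against 6185 and 6137. Of 10 lymphocyte markers 9 were matched, and 4 of these had no read, and the others reached 2.09 units at most, in Cd79a. Whether the rise of Ptgs2, Lcn2 and Tnfrsf12a came with the stellate, endothelial or duct RNA was not tested.

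**Figure D5:**
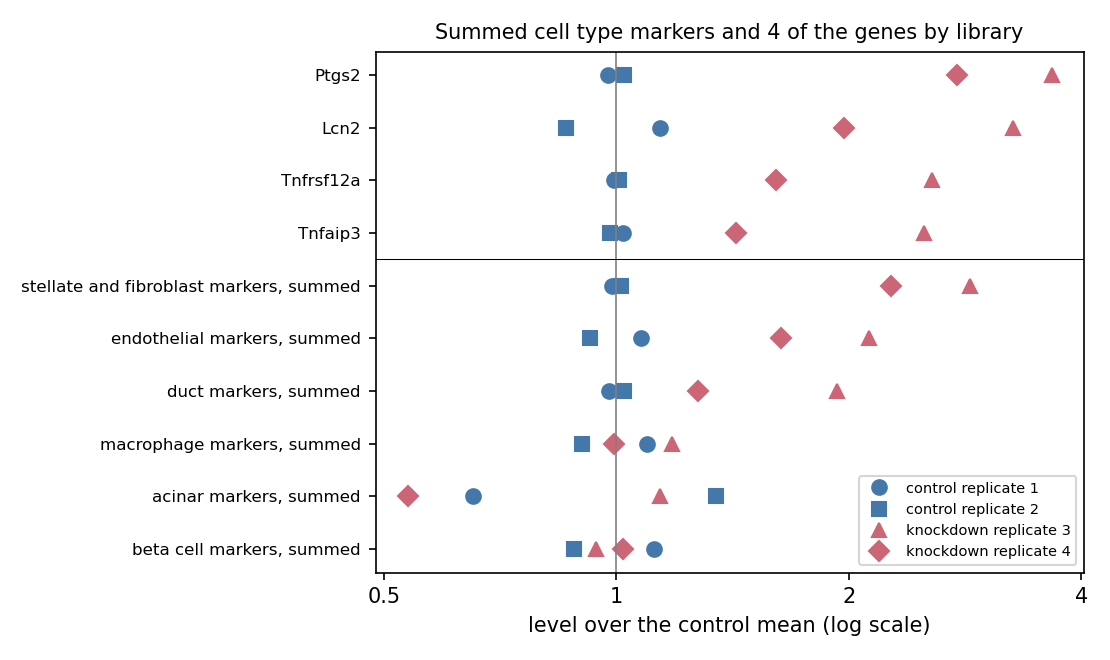
Level over the control mean in each library, on a log scale, for 4 of the genes and for summed marker lists of 6 cell types; blue symbols are the controls and red symbols the knockdown libraries. On the deposited values, stellate, endothelial and duct sums are above both controls in both knockdown libraries, while beta cell, acinar and macrophage sums overlap. The sums are not scaled by median ratio, and control replicate 2 ran lower for the typical gene, so that scaling can change which sums overlap.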

How the data were processed

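The authors deposited 1 table with a signal per gene and library. Per the submitters' processing notes, the tools were STAR 2.5.1b, HOMER 4.9 and edgeR, with the mouse build mm10; the notes used here assign no step to them. The table is named for FPKM, but the deposited signal counts reads in 10000000 library reads. All values between 0 and 1000 units were whole multiples of 1 read within 0.01 reads (100% in each library), so that reads were recovered. The deposited length, another column of the authors, equals the genomic span for 99.2% of genes. The library kit keeps strand, per the labels' protocols, but the counted region and the use of strand in counting are not given in the sources used here, so that overlapping genes can share reads. Of the nonzero read numbers below 500, 74.6% to 76.3% were even, and whether the 2 reads of a pair were each counted is not given in the sources used here. Apart from Ins1 and Ins2, which were kept, 15 rows exceeded 25000 units in at least 1 library. Without these 15 rows the libraries held 3992565 to 4624325 reads, of 55470964 to 65175895 reads in all rows. The median-ratio size factor was 0.847 for control replicate 2 and 1.04 to 1.08 for the other libraries. The deposited values of control replicate 2 thus ran lower for the typical gene.

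Genes below a mean of 1 unit or shorter than 200 nt were left out of the tests. Limma 3.58.1 in R 4.3.3 was run with a mean-variance trend, a pseudocount of 1 and a two-sided test. Its prior degrees of freedom were infinite, so that the spread came from the trend over all genes. Alternatives were other pseudocounts (0.1 and 0.5), filters and scalings, limma without the trend, edgeR 4.0.16 with TMM, DESeq2 1.42.0 and each library left out. EdgeR on reads halved and rounded up was added after seeing the data. The members and lists were chosen with earlier results of these data known. The rule for named genes took Taz, the 9 members, the called genes and the most abundant other gene of each pathway list, the most abundant gene of each marker list, and genes overlapping a member. Il1b, Tnf, Lrp2, Lyz2, Col1a2, Col3a1, Chuk, Ikbkb, Irak4, Traf3 and Mafa were chosen after their values were seen. Whether the pools share animals is not given in the sources used here, and p-values measure only the spread between these libraries, which may be technical.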

Additional observations from a re-analysis of the deposited data

How the results depend on the processing

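No paired analysis was possible because the groups share no replicate number. Of the 9 members 3 were called higher as reported. The count was 1 with no filter on low values, 0 with median-ratio scaling and knockdown replicate 3 left out, and 0 to 3 with each library left out in turn, the 0 being without knockdown replicate 3. Over all genes 337 were called higher and 6 lower. These counts were 80 and 0 with no filter on low values (1513 genes had an unadjusted limma p under 0.05 there), 151 and 21 after median-ratio scaling, and 528 and 16 without the trend. They were 174 and 20 with edgeR, 160 and 18 with edgeR on halved reads, and 83 and 11 with DESeq2. After quantile normalization 86 were higher. With median-ratio scaling and knockdown replicate 3 left out they were 45 and 49. With each library left out in turn, 28 to 1266 genes were higher (lowest without knockdown replicate 3, highest without control replicate 1) and 3 to 59 lower (lowest without knockdown replicate 4, highest without control replicate 2). Beside the members, 15 pathway genes were called higher. This count was 2 with no filter, 7 after median-ratio scaling, 3 after quantile normalization, 7 with edgeR, 7 with edgeR on halved reads, 3 with DESeq2, 1 with median-ratio scaling and knockdown replicate 3 left out, and 1 to 17 with each library left out. The 17, without control replicate 1, hold 10 of the 15 and 7 further genes. With 1 library left out, the lone sample of its group is assumed to vary like the other group. Below the median of all genes, with knockdown replicate 3 left out and scaling, were Relb (-0.11) and Nfkb2 (-0.41). With each library left out, the log2 fold change ran from -0.27 to 0.86 for Relb, from -0.41 to 0.48 for Nfkb2 and from -0.11 to 0.20 for Birc3. The cause of these changes was not tested, except that fewer libraries or more genes entered where the setting says so. Both other pseudocounts and the filter at 5 units kept all 3 member calls.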
